A study of Papio hamadryas with 11 samples.

Results

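Described here are 6 livers of baboon fetuses close to term, carried by control mothers, each hybridised to 1 human Illumina expression BeadChip. They are the samples whose labelled condition was control, 6 of the 11 in the series, which was made to ask how the fetal primate liver responds to maternal obesity. All 6 fetuses were Papio hamadryas, taken at 165 days or 0.9 of gestation, and the labels give no further treatment, diet or genotype. The arrays are called CON1 to CON6. Per the labels CON1, CON2 and CON3 were female and CON4, CON5 and CON6 male, and per the array positions CON1 to CON4 lay on slide 1 and CON5 and CON6 on slide 2.

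The liver before birth does the work of several organs. Its hepatocytes secrete albumin, clotting factors and transport proteins into the blood, while the niche around them still houses blood formation, which moves to the bone marrow as birth approaches. Fetal hepatocytes are known for alpha-fetoprotein, imprinted growth genes such as IGF2, H19 and DLK1 and the fetal cytochrome CYP3A7, whereas adult detoxification and glucose-producing enzymes are switched on around and after birth.

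Each value below is a probe signal on the log2 scale, background-corrected and quantile-normalized among these 6 arrays, so a difference of 1 is a doubling of signal. A probe counted as detected on an array when its deposited detection p-value was under 0.05. Per array 10549 (CON6) to 13065 (CON4) of the 48803 probes were detected, and 9028 probes (18.5%) were detected on all 6. These gave 6576 named genes, 34.9% of the 18852 named genes with a probe, and 1525 features without a gene symbol. Across these features pairs of arrays had correlations of 0.941 to 0.975. The median pair on the same slide was at 0.969, and the median pair on different slides at 0.952. Just inside the limit stood BACH2 (mean 5.70) and BDP1 (5.56), whose highest detection p over the 6 was 0.0487, and just outside it ABCG8 (6.73) and AGR3 (5.41), at 0.0501. The probes were designed on human sequence, and probes differ in affinity, so the order of genes by brightness describes probe signals and not transcript numbers. A gene not detected is one whose human probes gave no signal above background.

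The markers of the labelled tissue were detected on every array. Albumin (ALB) read 14.87, 14.81, 14.59, 14.74, 14.57 and 14.57 from CON1 to CON6, and the thyroid hormone carrier transthyretin (TTR) 14.53, 14.54, 14.81, 14.38, 14.60 and 14.81. Both lay among the 30 brightest genes, and no array stood apart in either. Alpha-fetoprotein (AFP) read 9.50, 10.70, 10.61, 10.33, 9.62 and 9.27, and the growth factor IGF2 9.80, 8.94, 9.98, 9.69, 9.46 and 10.66. These 2 spread more than albumin or transthyretin, with an SD over the 6 of 0.62 for AFP and 0.57 for IGF2 against 0.13 and 0.17, although the brightest probes of quantile-normalized arrays have little room to differ.

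The sex-linked probes were mixed on some arrays. XIST, the RNA that coats the inactive X chromosome, read 8.93, 8.57, 9.18, 7.41, 4.84 and 4.93 and was detected on CON1 to CON4, including the library labelled male CON4. The Y-linked ribosomal protein RPS4Y1 read 5.51, 4.83, 7.91, 11.74, 10.51 and 10.29, and RPS4Y2 4.93, 4.92, 6.08, 10.28, 10.60 and 10.71. The library labelled female CON3 was thus at 7.91 for RPS4Y1, against 5.51 and 4.83 on CON1 and CON2, and the library labelled male CON4 was at 7.41 for XIST, against 4.84 and 4.93 on CON5 and CON6. RPS4Y1 also passed the detection limit on CON1, with a detection p of 0.0277. On CON2 the RPS4Y1 probe was not detected, with a detection p of 0.318. The probes of RPS4Y1 and RPS4Y2 may bind each other's transcripts and that of RPS4X, which was not tested. The other Y-linked probes (DDX3Y, EIF1AY, UTY, USP9Y, ZFY, NLGN4Y, TMSB4Y and SRY) were detected on no array, so they carry no check.

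Sarcomere genes of the heart were bright in 3 of the libraries, CON3, CON4 and CON5. The ventricular myosin heavy chain MYH7 read 5.04, 4.85, 11.43, 12.02, 11.67 and 4.88. Cardiac actin ACTC1 read 4.76, 4.78, 11.60, 11.999, 12.56 and 4.67, and the cardiac-specific troponin TNNI3 4.87, 4.78, 10.22, 10.75, 10.42 and 4.72. These 3 libraries were singled out from the same values. The same 3 libraries carried the myosin light chains MYL3 and MYL7, myoglobin (MB), creatine kinase CKM and the small heat shock protein HSPB7. Of 38 heart genes with a probe, 33, 32 and 32 were detected on CON3, CON4 and CON5 against 14, 10 and 8 on CON1, CON2 and CON6. The defining heart genes TBX5, CSRP3, LDB3, MYOZ2 and FABP3 were detected on no array. Counting every probe, 115 of the 18852 named genes were detected on CON3, CON4 and CON5 and on none of the other arrays. No other trio of arrays was counted, and CON3 and CON4 had the most probes detected, 12522 and 13065. The gap from the lowest of the 3 to the highest of the others fell to -0.19 (GTF3C1) among the 115. In 19 of them this gap was over 2. Of those 19 genes, 11 stood on the muscle lists.

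The library CON5 also carried transcripts of fast and embryonic skeletal muscle. The fast light chain MYL1 read 5.67, 5.20, 4.92, 5.37, 9.91 and 5.27, the fast myosin MYH2 was at 8.47 on CON5 and at most 4.94 elsewhere, and the embryonic myosin MYH3 at 7.28 and at most 4.80. The natriuretic peptide gene NPPB, made by stressed heart muscle, was at 10.38 on CON5, 6.63 on CON3 and 6.14 on CON4. Of 19 skeletal muscle genes with a probe, 12 were detected on CON5 and 2 to 4 on each other array. The skeletal muscle genes MYOD1, MYOG, MYF6, MYH1, MYH8, MYBPC2 and PYGM were detected on no array.

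The library CON4 carried kidney transcripts. The endocytic receptor of the proximal tubule LRP2 (megalin) read 5.01, 4.81, 5.39, 7.75, 5.51 and 4.90, the tight junction gene CLDN8 of the collecting duct 5.16, 4.77, 7.09, 9.41, 6.75 and 4.89, and the podocyte gene PODXL 6.16, 5.23, 6.89, 8.98, 6.45 and 4.88. CON4 was highest for each of them, with CON3 and CON5 between it and the other 3. Of 35 kidney genes with a probe, 23 were detected on CON4, 14 on CON3, 10 on CON5, and 5, 3 and 2 on CON1, CON2 and CON6. The nephron progenitor gene SIX2, PAX2, the water channel AQP2 and CUBN were detected on no array. By 1 probe per gene, CON4 had 85 genes lying over 1 above all 5 other arrays, 15 of them on the kidney list, against 15 to 25 genes on the other arrays, with no kidney gene among them. The posterior homeobox gene HOXD10 was at 7.08 on CON4 and at most 5.19 elsewhere.

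The heart, skeletal muscle and kidney lists were written after these values had been seen, and they describe the libraries only. What part these transcripts play in the values of liver and blood genes was not tested, and each count below is given with and without CON3, CON4 and CON5 where it moved. Without CON3 and CON4 6675 named genes were detected on all remaining arrays, and without CON5 as well 6840.

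**Figure D1:**
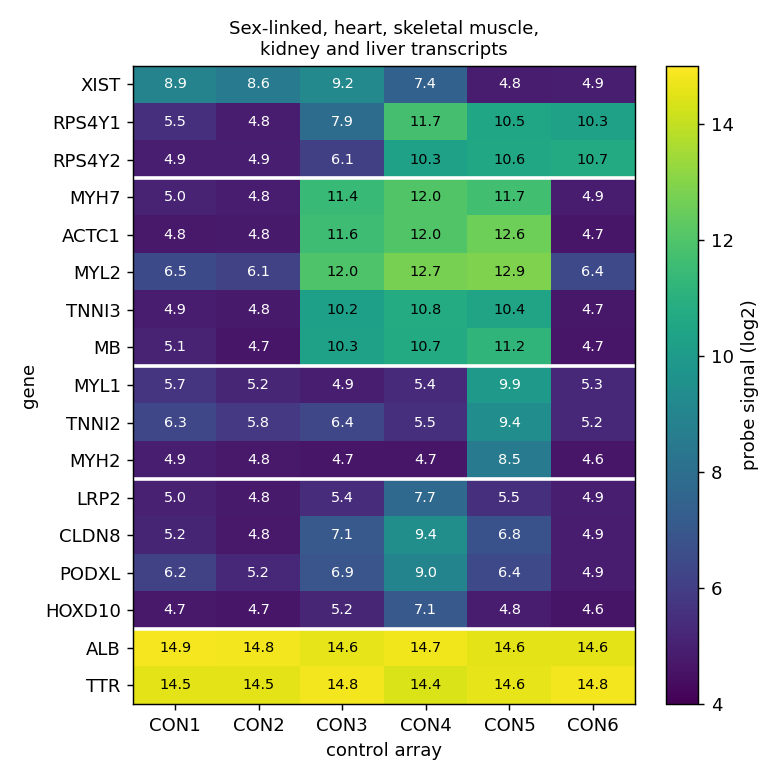
Probe signals (log2, colour and printed value) of sex-linked, heart, skeletal muscle, kidney and liver genes on the 6 control arrays. The heart genes MYH7 and ACTC1 were above 11 on CON3, CON4 and CON5 and near 5 on CON1, CON2 and CON6. MYL1 was high on CON5 alone, and ALB and TTR were near the top of the scale on all 6.

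The 30 genes of highest mean signal ran from 14.84 (TPT1, a translationally controlled growth protein) to 14.11 (CCR6). The plasma proteins among them were ALB (mean 14.69), TTR (14.61), the lipoprotein lipase inhibitor APOC3 (14.38), alpha-1-antitrypsin SERPINA1 (14.26), antithrombin SERPINC1 (14.18), complement factor B CFB (14.14), the secreted ribonuclease ANG (14.21) and the haptoglobin-related protein HPR (14.11). The imprinted RNA H19 (14.54) stood beside them, as did alpha-globin HBA2 (14.50), the fetal gamma-globin HBG2 (14.31) and the iron store ferritin light chain FTL (14.43). Translation was represented by the elongation factor EEF1A1 (14.62), the ribosomal protein RPS27 (14.44) and RN7SL1 (14.64), the RNA of the signal recognition particle that steers secreted proteins into the endoplasmic reticulum. Over the 6 arrays these 30 genes ranged by 0.13 to 1.25, the widest being HBG2 at 1.25 and HBA2 at 1.02.

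Probes of the same gene differed in ways that bear on this order. Of the 30 brightest genes, 7 had no other probe on the array, 8 had another probe detected on all 6, and 15 had other probes of which none was detected on all 6. ALB, EEF1A1 and FTL belonged to the second kind, with their other probe at a mean of 14.48, 14.27 and 14.23. The inhibitory immune receptor LAIR1 belonged to the last kind: 1 probe had a mean of 14.72 and the other 5.54. The ciliary transport gene CLUAP1 (14.66), the thrombin receptor F2R (14.56), the DNA repair gene MSH3 (14.44), the replication genes PCLAF (14.56) and ORC6 (14.33), the peptidase XPNPEP3 (14.34), the kinase ROCK2 (14.26), ITIH5 (14.39), FARSB (14.33) and CCR6 were of the same kind, as were the pseudogenes SLC7A5P2 (14.59) and TUBA3FP (14.38). HPR and the actin-binding TMSB4X (14.21) were also in this group. What these probes bound in baboon RNA was not tested, and with the mean of all probes of a gene, detected or not, 12 of the 30 stayed among the brightest, against 28 with the mean of its probes detected on all 6.

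Of the plasma protein genes 32 of 38 (84.2%) were detected on all 6 arrays, with or without CON3, CON4 and CON5, at a median of 13.20 against 7.31 for all features detected on all 6. Their median SD between livers of the same slide was 0.24, the same as the 0.24 of all features. The carriers and enzymes transferrin (TF), ceruloplasmin (CP), ITIH4, FETUB and SERPINF1 were detected on no array. Apolipoprotein B (APOB), the scaffold of very low density lipoprotein, read 12.92 to 13.28, while the fatty acid binding protein FABP1 was detected on none. Coagulation genes were detected on all 6 in 21 of 26 cases, with plasminogen PLG at 13.30 to 13.89 and the clotting regulator HRG at 13.75 to 14.32. Factor IX (F9), F3 and CPB2 were on no array.

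Complement genes were detected on all 6 in 26 of 34 cases. The central component C3 read 12.52, 12.57, 12.74, 13.28, 12.62 and 13.53, highest on CON6 and CON4, and vitronectin VTN stayed between 13.23 and 13.53. Of the acute phase list 17 of 24 were on all 6, led by CFB and the fibrinogen chains. The fibrinogen chain FGA read 13.12, 14.37, 14.22, 13.94, 14.24 and 13.51, lowest on CON1 and CON6. The classic inflammation markers CRP and SAA1 were low, at 6.16 to 7.32 and 5.41 to 7.15, and SAA2 was on no array.

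Of the fetal hepatic programme 16 of 28 genes were detected on all 6 arrays, 5 on some and 7 on none, and of the adult hepatic programme 33 of 48, 3 and 12. Both counts were the same without CON3, CON4 and CON5. Beside the 34.9% of all named genes detected on all 6, the fetal share was 57.1% and the adult share 68.8%. The 2 programmes were therefore seen side by side in these livers, and their median levels, 9.28 and 9.69, belong to different probes and are not compared.

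The imprinted genes led the fetal list. H19 read 14.63, 14.65, 14.54, 14.54, 14.53 and 14.33, the membrane growth regulator DLK1 11.66, 12.48, 12.02, 12.72, 12.53 and 12.57, and its neighbour in the same imprinted cluster MEG3 12.05, 11.99, 11.72, 12.53, 12.30 and 12.38. CON4 was highest for DLK1 and MEG3, and CON1 and CON3 were lowest for the one and the other. The imprinted zinc finger gene PEG3 read 10.75, 10.79, 9.55, 9.62, 10.12 and 10.59, with CON3 and CON4 lowest. The cell cycle inhibitor CDKN1C read 6.24, 5.70, 6.51, 7.53, 5.95 and 5.57 and PLAGL1 5.47 to 6.24, and PEG10 was detected on 5 arrays.

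IGF2 mRNA binding proteins, which are largely silent in adult liver, were present. IGF2BP3 read 8.31 to 8.72 and IGF2BP1 6.47 to 7.60, and IGF2BP2 was detected on 5 arrays. IGF2 had 3 probes on all 6 arrays with means of 9.76, 8.69 and 7.06, and the values given here are those of the brightest. The receptor of the bile acid signal FGF19, FGFR4, stayed between 8.31 and 9.05, alkaline phosphatase ALPL between 10.30 and 11.28 and the glutathione transferase GSTP1 between 9.87 and 10.93. The fetal flavin enzyme FMO1 read 6.70 to 7.54 and the transcription factor SOX4 6.27 to 7.77.

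The fetal cytochrome CYP3A7 read 6.98, 7.57, 8.27, 9.17, 7.24 and 7.02, highest on CON4 and CON3. The adult isoform CYP3A4 was detected on none, its probe lying between 4.90 and 5.21, and CYP3A probes can bind more than 1 family member. The oncofetal surface proteoglycan GPC3 was detected on 1 array and the reductase AKR1B10 on 2, while the glycolytic PKM was on 5. The early embryonic regulators LIN28B, HMGA2, TRIM71 and SALL4 were on no array, nor were HK2, MEST and SULT1E1.

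**Figure D2:**
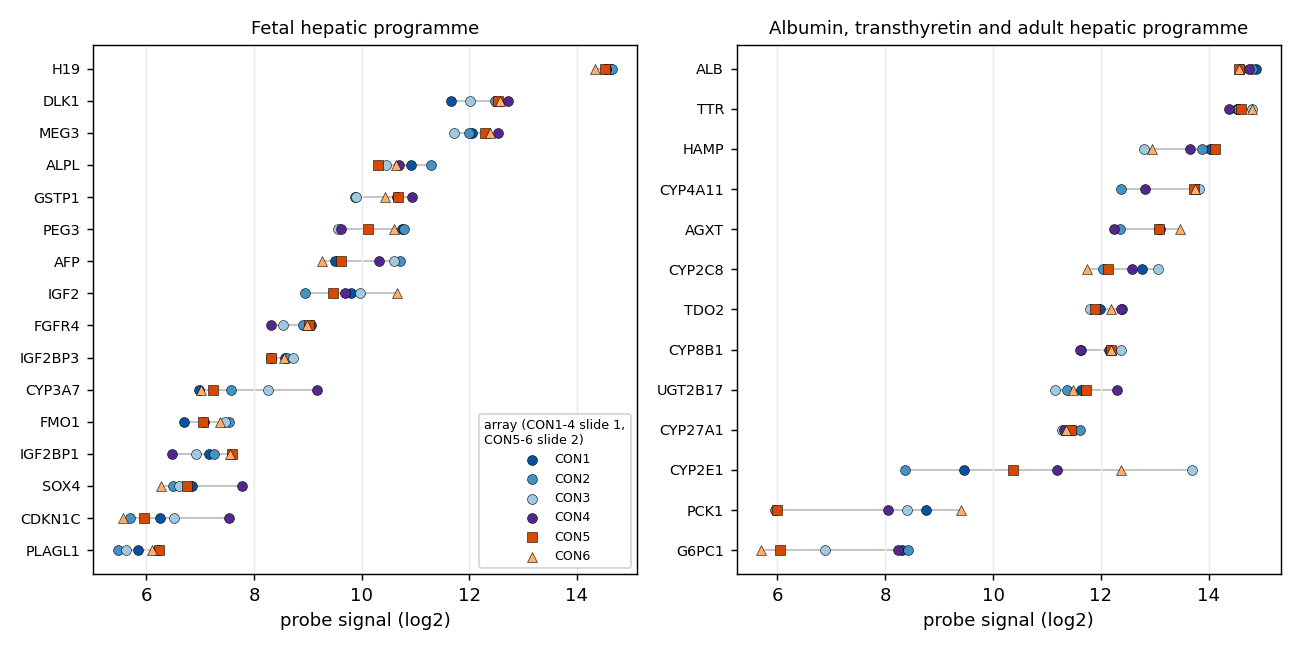
Probe signals (log2, horizontal axis) of the fetal hepatic programme genes detected on all 6 arrays (left) and of ALB, TTR, the 8 adult programme genes of highest mean signal, CYP2E1, PCK1 and G6PC1 (right), with 1 point per control array and a grey line over the range. CYP2E1 spread from 8.36 to 13.69 and PCK1 from 5.96 to 9.40, while ALB and H19 stayed within 0.32.

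The brightest adult-type gene was HAMP. The iron hormone hepcidin (HAMP) read 14.02, 13.87, 12.80, 13.65, 14.12 and 12.94, lowest on CON3 and CON6. The fatty acid hydroxylase CYP4A11 read 12.38 to 13.82, the glyoxylate enzyme AGXT 12.24 to 13.46, the drug-metabolising CYP2C8 11.74 to 13.07 and the tryptophan dioxygenase TDO2 11.80 to 12.40. The bile acid enzymes CYP8B1 and CYP27A1 read 11.61 to 12.37 and 11.27 to 11.60. CYP7A1, the rate-limiting enzyme of the classic bile acid pathway, was on no array, nor was the uptake carrier SLCO1B3, whereas the bile acid importer SLC10A1 read 10.85 to 11.71 and the export pump ABCB11 7.58 to 8.67.

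Enzymes of postnatal drug handling split the same way. CYP1A2, CYP2B6, the bilirubin-conjugating UGT1A1, UGT2B7, ADH1B and the glucocorticoid-induced tyrosine aminotransferase TAT were detected on no array. The steroid-conjugating UGT2B17 read 11.15 to 12.30 and UGT2B15 8.19 to 10.35, each highest on CON4. These family members share much sequence, and their probes may not separate them. The carrier subunit IGFALS and the glycogen synthase GYS2, both of the postnatal liver, were on no array.

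The ethanol-metabolising CYP2E1 was the adult gene that differed most between livers. It read 9.47, 8.36, 13.69, 11.18, 10.37 and 12.37, so CON3 exceeded CON2, also labelled female and on the same slide, by 5.33, a 40.2-fold span of signal. On slide 2 CON6 lay above CON5 as well. The pericentral cytochrome CYP2A6 was detected on 2 arrays, with its highest value, 6.61, on CON3 too.

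Glucose production was uneven. The first gluconeogenic enzyme PCK1 read 8.75, 5.96, 8.41, 8.06, 5.99 and 9.40, with CON2 and CON5 low, and the last, the glucose-6-phosphatase G6PC1, 8.32, 8.43, 6.88, 8.23, 6.04 and 5.71. The orders of the livers in the 2 genes differed, since CON6 was highest for PCK1 and lowest for G6PC1. The mitochondrial PCK2 and FBP1 were steadier, at 10.88 to 11.65 and 10.39 to 11.77. PYGL, the liver glycogen phosphorylase, was on no array, and of the glucose and glycogen list 16 of 20 were on all 6 (17 without CON3, CON4 and CON5).

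The urea cycle and amino acid list had 22 of 32 members on all 6. Ornithine transcarbamylase OTC read 11.42, 11.41, 11.66, 10.97, 11.70 and 12.32 and the argininosuccinate synthase ASS1 9.001, 9.31, 10.19, 8.52, 10.13 and 10.43, both lowest on CON4 and highest on CON6. CON4 had the lowest mean deviation over this list, -0.49 against -0.13 to 0.31 on the others, and its hepatic transcription factor list was also lowest, at -0.36 against -0.07 to 0.23. Arginase ARG1, GLUL, GLUD1 and BHMT were on no array. The fatty acid oxidation list had 18 of 25 on all 6, with the mean deviation at 0.39 on CON6 and 0.30 on CON3 and at -0.29 on CON4 and -0.25 on CON2. Its acyltransferase ACAA1 read 11.81, 10.66, 12.07, 10.76, 11.93 and 13.04.

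Hepatic transcription factors were detected on all 6 in 18 of 23 cases. The aryl hydrocarbon receptor AHR was the steadiest of the bright ones at 11.57 to 11.94. CEBPA, which drives hepatocyte maturation, read 10.37, 10.35, 10.52, 9.72, 10.64 and 11.45, and FOXA3 10.64, 11.35, 10.07, 9.39, 10.43 and 10.43, both lowest on CON4. GATA6 and THRB were on no array.

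Transcripts of blood-forming lineages were detected, and the levels of many differed widely between the 6 livers. Beside the 34.9% of all named genes detected on all 6, the share was 77.8% for globins and 45.2% for erythroid genes. It was 35% for stem and progenitor, 36.8% for megakaryocyte and 37% for granulocyte genes, so these counts do not set those lists apart from all named genes. The shares of the B cell and the T and NK cell lists were below it. All 9 globin genes on the array were detected in at least 1 liver and 7 in all 6, a count that was the same without CON3, CON4 and CON5. HBA2 read 14.81, 14.29, 13.79, 14.72, 14.76 and 14.65. The fetal gamma chains HBG2 and HBG1 read 14.76, 14.17, 13.52, 14.53, 14.63 and 14.24, and 14.58, 13.90, 13.09, 14.11, 14.54 and 13.78. CON3 was lowest and CON1 highest for all 3. HBG1 and HBG2 are near-identical, and so are the alpha-globin copies, so each probe may read both members of its pair.

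The adult and embryonic chains were also highest on CON1 and CON5 and lowest on CON2 and CON3. Beta-globin HBB read 14.41, 12.52, 12.50, 13.96, 14.10 and 13.47, and the embryonic epsilon-globin HBE1 9.40, 5.48, 5.51, 6.46, 8.70 and 6.14, a 15.2-fold span. HBE1 was thus far above background in CON1 and CON5 and close to it in CON2 and CON3. The minor alpha-like globins HBM and HBQ1 were also highest in CON1, at 10.03 and 8.67, and lowest in CON3, at 6.25 and 5.44. Delta-globin HBD was detected on 3 arrays and the embryonic zeta-globin HBZ on 1.

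The mean deviation of the 7 globins was 1.18 on CON1, 0.84 on CON5, 0.05 on CON4, -0.16 on CON6, -0.73 on CON2 and -1.19 on CON3. In bulk tissue, more cells of a type and more RNA per cell cannot be told apart, and neither can red cells made in the liver and red cells in its blood vessels. CON5, one of the high livers, was also the library with both muscle signals, and CON3, the lowest, carried heart transcripts. CON1 and CON2 lay at 1.18 and -0.73. On them MYH7, ACTC1 and TNNI3 were not detected, but 14 and 10 of the 38 heart genes were. What part muscle transcripts play in the globin values was not tested.

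Genes of red cell precursors had their high livers in common with the globins. Of 42 erythroid genes 19 were detected on all 6, 12 on some and 11 on none. ALAS2, the first heme enzyme of red cell precursors, read 11.07, 7.96, 7.29, 9.32, 10.63 and 9.22, the alpha-globin chaperone AHSP 10.66, 8.15, 6.95, 8.45, 10.71 and 9.47, and the red cell membrane gene RHAG 9.39, 6.55, 5.92, 7.54, 9.50 and 7.98. In all 3 genes CON1 and CON5 were highest and CON3 lowest. The heme enzymes FECH, UROS and ALAD stayed within 0.72, at 9.76 to 10.43, 9.31 to 10.03 and 9.40 to 10.04. The heme enzyme UROD read 7.33, 7.63, 7.12, 7.001, 6.24 and 6.07, lower on both arrays of slide 2. The transferrin receptor TFRC read 9.34, 7.92, 8.93, 8.61, 8.15 and 7.59, with CON5 not among its high livers, and CA2 was highest on CON4. The master regulator KLF1, the erythropoietin receptor EPOR, GFI1B and CA1 were on no array.

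Granulocyte genes also spread widely. Of 27, 10 were on all 6, 12 on some and 5 on none. The neutrophil defensin DEFA1 read 12.65, 9.59, 8.89, 12.65, 13.05 and 10.93, the calcium-binding S100A9 12.84, 9.98, 9.54, 12.10, 12.58 and 9.88, and the cathelicidin CAMP 12.10, 9.58, 8.72, 11.02, 12.31 and 9.50. Myeloperoxidase MPO, made by immature granulocytes, read 9.79, 7.15, 6.21, 9.19, 9.16 and 7.07. In these 4 genes CON1, CON4 and CON5 read above CON2, CON3 and CON6, a grouping taken from the same values. DEFA3, LTF and CSF3R had that grouping too, while BPI, PGLYRP1 and FCGR3B did not. BPI was at 8.33 on CON4 and 8.78 on CON3. DEFA1, DEFA1B and DEFA3 are near-identical copies and count as 1 signal. BPI (8.29 to 9.57), CSF3R (6.44 to 7.89) and LTF (5.73 to 6.72) spread less, while S100A8, AZU1, CEACAM8, CEACAM6 and DEFA4 were on no array. The eosinophil granule gene PRG2, the sole mast cell, basophil and eosinophil gene of 11 on all 6, read 8.13, 5.44, 5.42, 6.48, 7.73 and 6.52, again highest on CON1 and CON5.

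**Figure D3:**
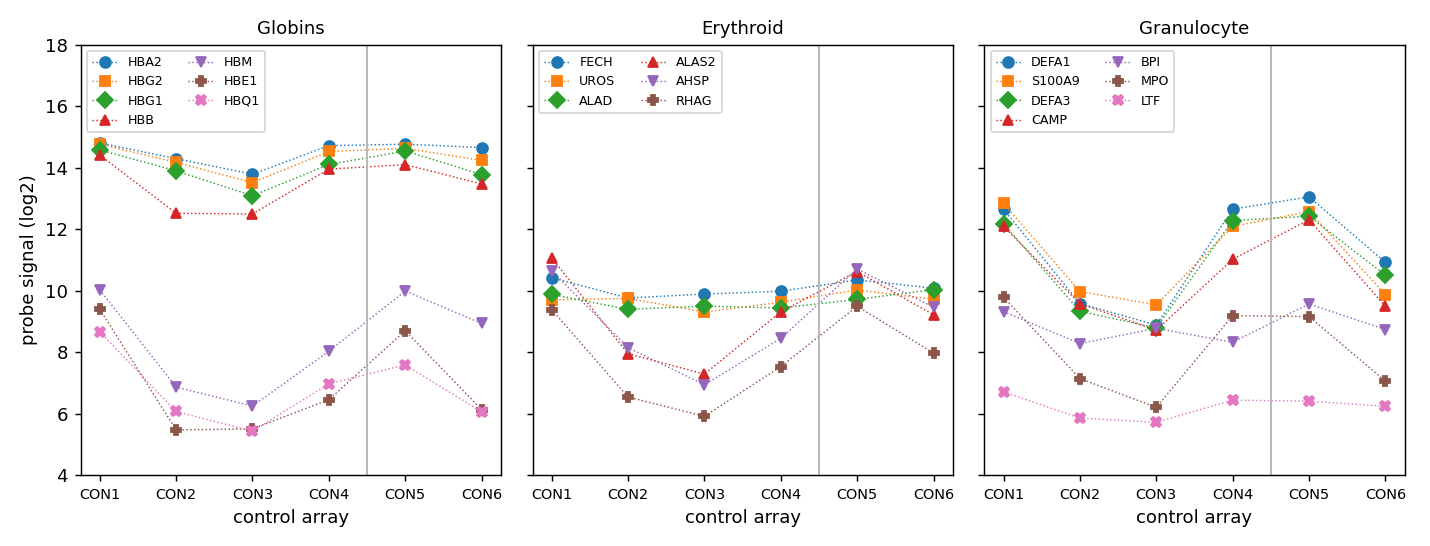
Probe signals (log2, vertical axis) of globin, erythroid and granulocyte genes on the 6 control arrays, with the grey line dividing slide 1 from slide 2; dotted lines only join the points of a gene. ALAS2, AHSP, RHAG, HBE1 and MPO were higher on CON1 and CON5 than on CON2, CON3 and CON6, while FECH, UROS and ALAD stayed within 0.72.

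Proliferation genes had a similar order. Of 41 cell cycle genes 16 were detected on all 6 and 11 on none, among them the cyclins CCNB1 and CCNB2. The share on all 6 was 39%, near the 34.9% of all named genes. The securin PTTG1 read 9.50, 7.65, 7.20, 7.99, 9.15 and 7.91, highest on CON1 and CON5, and MCM7 of the replicative helicase 8.81, 8.18, 8.30, 8.10, 9.13 and 8.34. The mean deviation of the 16 was 0.55 on CON1 and 0.48 on CON5, and -0.34 to -0.15 on the other 4. RRM1 (9.38 to 9.95) and PLK1 (8.50 to 9.44) were steadier.

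Stem and progenitor genes, at a median of 7.10 against 7.25 for erythroid genes, did not follow the red cell order. Of 20, 7 were on all 6 and 10 on none, the latter including PTPRC, RUNX1, GATA2, FLT3 and LMO2. CD34, which also marks endothelium, read 8.09, 7.30, 8.37, 9.07, 8.78 and 7.59, the stem cell regulator MECOM 6.59, 6.11, 6.95, 8.96, 7.60 and 6.37, and the receptor KIT 6.92, 6.94, 6.60, 7.13, 6.81 and 6.10. CON4 was highest for all 3. MECOM is also a gene of the kidney tubule, and CON4 was the library with kidney transcripts. HHEX (8.62 to 9.65), SPN (7.25 to 7.87), PROM1 (6.28 to 7.83) and MEIS1 (5.93 to 7.10) made up the rest. With detection p under 0.01 3 of these 7 were left.

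Of the factors that support blood formation, the chemokine CXCL12, which holds stem cells in their niche, read 9.42 to 10.39 on its brightest probe. IGFBP2 read 8.93, 8.74, 8.70, 8.53, 6.51 and 8.46, low on CON5 alone. Erythropoietin (EPO), ANGPT1, FLT3LG and CSF1 were on no array, and the KIT ligand KITLG was on 3. Megakaryocyte genes were on all 6 in 7 of 19 cases, and the platelet genes PF4, PPBP, ITGA2B and GP9 were on none. Those on all 6 were led by VWF (9.34 to 10.33), GNG11 and CLEC1B, which endothelium or macrophages also make.

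Lymphoid genes were few. Of 23 B cell genes 6 were on all 6 and 11 on none, and with detection p under 0.01 none was left on all 6. The surrogate light chain IGLL1, made by B cell precursors, read 7.82, 6.42, 6.70, 8.09, 7.54 and 6.35 and the receptor chain CD79B 7.32, 6.64, 6.74, 7.64, 7.17 and 6.51. In both CON1, CON4 and CON5 were the 3 high livers, as for DEFA1, S100A9, CAMP and MPO. CD24, on the B cell and the cholangiocyte list, read 7.94, 6.03, 7.13, 9.47, 6.77 and 5.84, with CON4 highest. The B cell genes PAX5, MS4A1, RAG1, RAG2 and DNTT were on no array. Of 23 T and NK cell genes 3 were on all 6, all dim (ZAP70 6.05 to 7.06, IL7R 5.84 to 6.26, GNLY 5.35 to 6.10), and CD3G, LCK and NKG7 were on none. Without CON3, CON4 and CON5 the count was 4.

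Kupffer cell and macrophage genes were well represented, with 17 of 27 on all 6 (18 without CON3 and CON4, 19 without CON5 as well). The endotoxin co-receptor CD14 read 11.86, 12.58, 12.52, 11.66, 12.21 and 12.69 and the growth factor receptor CSF1R 11.75, 11.44, 11.37, 11.12, 11.23 and 11.93. The complement subunits C1QC and C1QB were highest on CON6 and CON1, at 11.99 and 11.55, and 11.62 and 11.35. The list's mean deviation was 0.48 on CON6 and 0.35 on CON1 and lowest on CON5, at -0.42, so its order was not that of the granulocyte genes. The scavenger receptor CD163 read 8.33 to 9.31, CD68 8.42 to 10.48, LYZ 8.39 to 9.59 and AIF1 8.33 to 9.62. CD5L, MRC1 and ADGRE1 were on no array.

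Sinusoidal endothelial genes were on all 6 in 18 of 26 cases, and 22.2% of the 18 spread more than the 90th percentile of all features within a slide. The scavenger receptor CD36 read 10.75 to 11.49, the ficolins FCN2 and FCN3 9.68 to 10.98 and 9.59 to 10.86, and the junction gene CDH5 8.88 to 9.43. LYVE1, CLEC4M and MRC1, which define these vessels, were on no array. Stellate and mesenchymal genes were on all 6 in 20 of 30 cases. The collagen chains COL1A1 and COL1A2 read 10.58, 10.06, 10.02, 11.59, 12.11 and 9.75, and 10.45, 9.63, 10.01, 11.67, 11.98 and 9.78. CON4 and CON5, 2 of the libraries with muscle transcripts, were the high ones for both chains. Decorin DCN read 11.34 to 12.48 and biglycan BGN 11.38 to 12.67, and COL3A1 and LUM were on no array. Cholangiocyte genes were on all 6 in 2 of 17 cases. These were CD24 and EPCAM, which read 8.80, 7.60, 8.52, 10.67, 7.81 and 9.93, and the keratins KRT7 and KRT19 were on none. Of the adrenal, muscle and gut list 1 of 21 was on all 6, the steroid hydroxylase CYP21A2, at 7.51 to 8.72.

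The spread between livers was read within each slide, as the SD about the slide's own mean over 4 degrees of freedom. Over all features its median was 0.24 and its 90th percentile 0.47. The share of a list's genes above that 90th percentile, 10% of all features by construction, was 85.7% of 7 globins, 70.0% of 10 granulocyte genes, 57.9% of 19 erythroid genes, 58.8% of 17 Kupffer cell genes, 56.2% of 16 proliferation genes and 75.0% of 20 stellate genes. It was 100% of 6 metallothionein genes and 68.4% of 19 immediate early and heat shock genes. It was 1.72% of the 58 genes of the ribosomal list, which includes TPT1. The share was 28.1% of 32 plasma protein genes, 43.8% of 16 fetal and 45.5% of 33 adult hepatic genes. Of the lists named in this paragraph the ribosomal list had the lowest share.

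**Figure D4:**
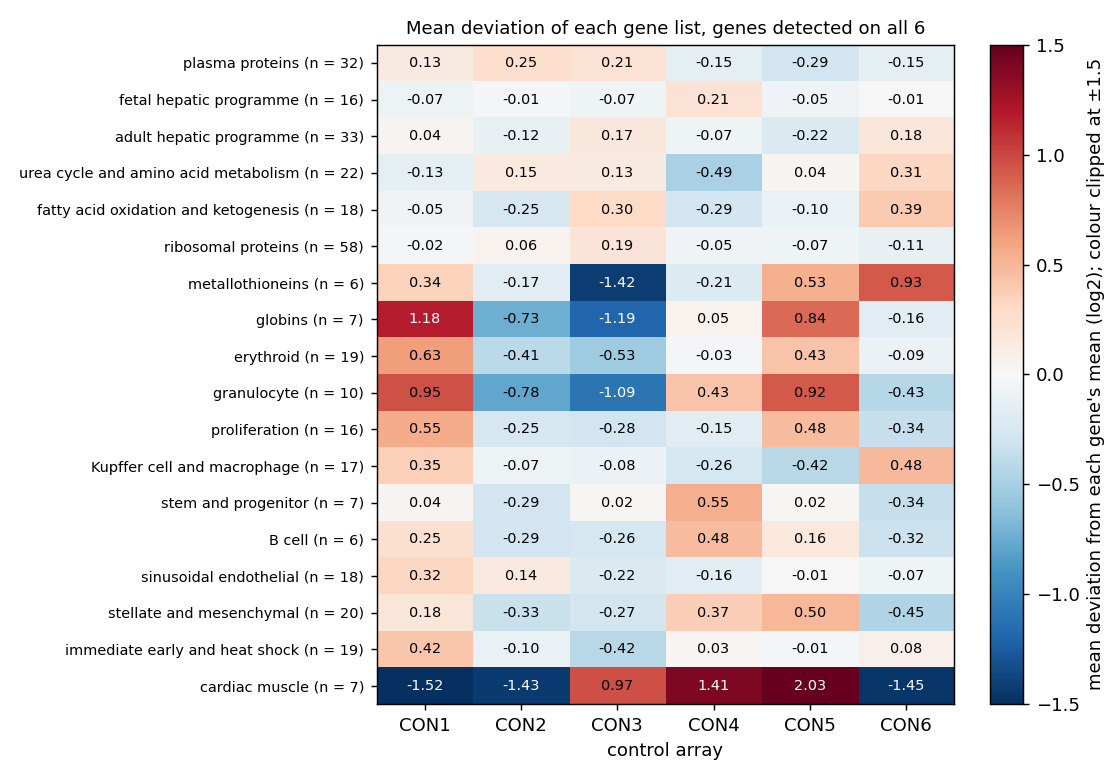
Mean deviation (log2, colour and printed value) of the genes of each list on each control array from their own means over the 6, with the number of genes detected on all 6 in brackets. Globin, erythroid, granulocyte and proliferation lists were highest on CON1 and CON5, the heart muscle list was positive on CON3, CON4 and CON5 alone, and the ribosomal list stayed within -0.11 to 0.19.

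The 30 genes of largest within-slide SD, from 3.80 to 1.36, fell into a few kinds. Heart muscle genes led them. The ventricular light chain MYL2 read 6.46, 6.14, 11.98, 12.74, 12.88 and 6.45 and the troponin TNNC1 5.79, 5.83, 10.58, 10.95, 11.47 and 5.53. TPM1, FHL2 and the calcium pump ATP2A2 had the same high libraries. Without CON3 and CON4, 25 of the 30 stayed among the 30 most variable genes, and without CON5 as well 20.

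Blood genes made up a second group, namely DEFA1, DEFA1B, DEFA3, S100A9, MPO, CAMP, HBE1, HBM, ALAS2, RHAG and AHSP. Metabolic genes were another, with CYP2E1, PCK1, CPS1, the endothelial lipase LIPG, HIBADH of valine breakdown, the sugar kinase IDNK and the diol dehydrogenase DHDH. DHDH read 9.81 on CON4, the library with kidney transcripts, 7.77 on CON3, 7.58 on CON5 and at most 6.36 elsewhere. What part kidney transcripts play in its values was not tested. The metallothionein probes MT1H and MT1B made up the last group. MT1H read 12.42, 9.70, 8.59, 11.57, 12.15 and 13.65 and MT1B 8.31, 9.45, 7.44, 7.95, 12.76 and 8.97, so the 2 had different high livers. These zinc- and copper-binding proteins are encoded by near-identical genes.

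HIBADH had a single low liver, while the genes given after it had several levels. HIBADH read 5.70, 9.40, 9.997, 9.26, 9.01 and 9.23, and the glycolytic enzyme ENO1 5.37, 9.45, 9.38, 7.43, 9.14 and 9.22, with CON1 lowest in both. The mitochondrial urea cycle enzyme CPS1 read 5.51, 8.99, 6.91, 5.17, 6.94 and 6.86, high on CON2 alone, and the tRNA synthetase EPRS1 5.91, 9.01, 8.45, 6.19, 6.82 and 7.17. TTC38 read 10.71, 5.61, 10.47, 8.01, 10.23 and 7.97 on 1 probe, while its other probe read 6.56 to 8.13. The membrane gene SEZ6L2 read 7.60, 7.57, 8.88, 5.49, 6.15 and 8.79. The matrix signal CCN1 read 10.26, 7.05, 6.44, 8.09, 8.58 and 10.46, high on CON1 and CON6. Of the 30, 11 had another probe and 5 had another probe on all 6.

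Genes that spread on slide 1 also spread on slide 2. The 100 named genes of largest SD among CON1 to CON4 differed between CON5 and CON6 by a median of 1.29, against 0.23 for all 6576 named genes, and 59.0% of them differed by over 1, against 4.46%. The 100 genes were chosen on slide 1 only, but CON3 and CON4 on slide 1 and CON5 on slide 2 shared the heart transcripts.

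**Figure D5:**
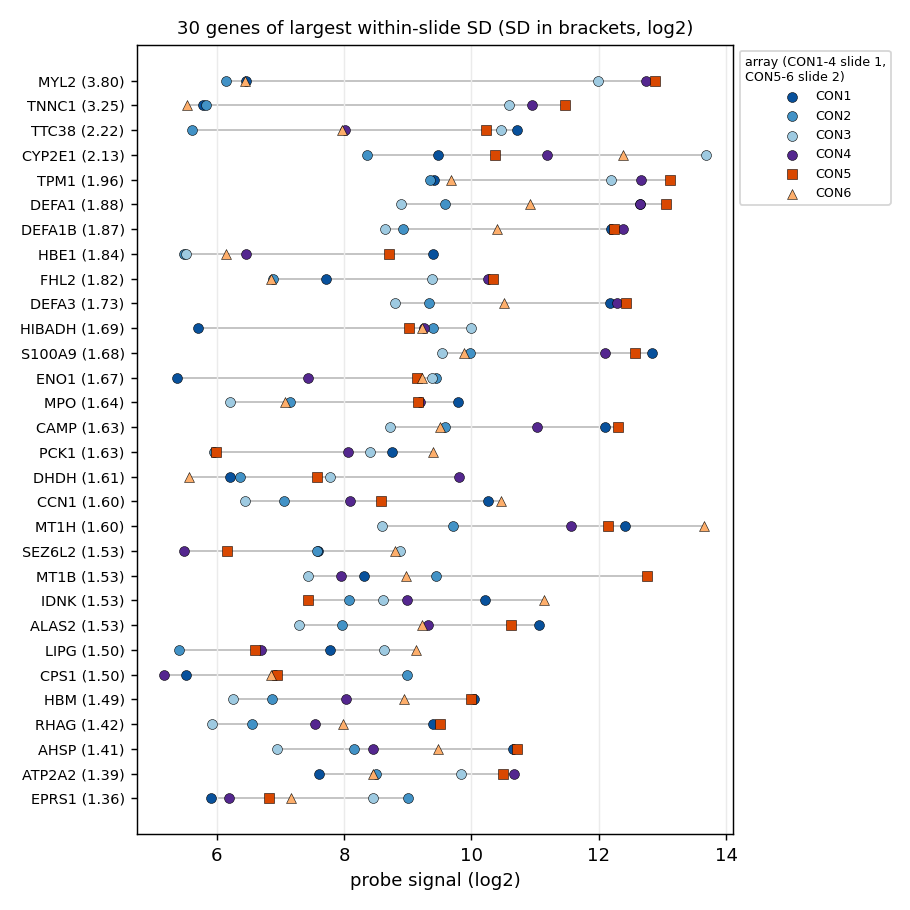
Probe signals (log2, horizontal axis) of the 30 named genes of largest within-slide SD (in brackets after the symbol), with 1 point per control array and a grey line over the range. MYL2 and TNNC1 split into 3 high and 3 low arrays, and HIBADH had a single low array, CON1.

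The leading principal component, with 39.8% of the variance, put CON1 to CON4 between -22.3 and -6.79, and CON5 and CON6 at 22.2 and 31.6. With limma, 218 of 8101 features (2.69%) differed between slides at an adjusted p under 0.05, 15 (0.185%) higher and 203 (2.51%) lower on slide 2. The glutamine carrier SLC38A2 was lower on slide 2 by 2.18 (SE 0.20, limma adjusted p = 0.00787), at a mean of 6.69 against 8.87, and the copper chaperone COX17, PCDH20, PRKRA and TNS3 by 1.73 to 2.30 with the same adjusted p. The actin regulator CFL2 was higher by 1.02 (SE 0.18, limma adjusted p = 0.0265), as were PPRC1, OR52D1, FOSL1 and KIR3DL1, by 0.88 to 1.08. With other processing or arrays left out, the call was lost in 8 settings for CFL2, PPRC1 and OR52D1, 9 for FOSL1 and 10 for KIR3DL1. It was kept in 4, 4, 4, 3 and 2 settings. For the lower genes SLC38A2, COX17, PCDH20, PRKRA and TNS3 it was lost in 1 to 3 and kept in 9 to 11.

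There was 1 array per fetus, so these p-values measure only the spread between these samples. Slide 2 held no female, so slide and sex are largely the same split, and with sex as a covariate no feature was called. The count was 10 with median scaling, 7 without CON6, 14 without CON5, 71, 80 and 91 without CON1, CON2 or CON3, and 0 without CON3, CON4 and CON5. Of the 459 distinct list genes tested 15 (3.27%) were called, against 2.69% of all features, and all 15 were lower on slide 2. They were APOA2 and FGB of 32 plasma proteins (6.25%), ALDH2, G6PC1 and SLCO1B1 of 33 adult hepatic genes (9.09%), UROD of 19 erythroid genes (5.26%) and RPLP1, RPL14 and RPL23 of 58 ribosomal list genes (5.17%). The others were HADH and DECR1 of 18 fatty acid oxidation genes (11.1%), HP, which with FGB made 2 of 17 acute phase genes (11.8%), TEK of 18 sinusoidal endothelial genes, HSD17B6 of 12 steroid response genes and EIF1AX of 5 sex chromosome genes. None of the 16 fetal hepatic genes, 7 globins or 10 granulocyte genes was called.

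Female against male was tested with slide as a covariate, which leaves the labelled females CON1 to CON3 against the labelled male CON4. No feature of 8101 (0%) was called, with 900 at an unadjusted p under 0.05 and a smallest limma adjusted p of 0.184. The largest differences by p were GUCD1 (2.24, SE 0.25), SHBG, the sex hormone binding globulin (1.59, SE 0.23), and DECR2 (1.75, SE 0.27) on the female side, and AFAP1L2 (-1.69, SE 0.23), NOX4 (-1.69, SE 0.25) and CXCL14 (-2.33, SE 0.39) on the male side, all at that adjusted p. SHBG read 10.60, 10.72, 10.84, 9.13, 10.13 and 9.85. CON4 was the sole male on slide 1 and the library with heart and kidney transcripts and with both XIST and RPS4Y1 signal, so sex cannot be told apart from what sets that library apart.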

How the data were processed

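Liver RNA of 6 control fetuses was hybridised to human Illumina BeadChips, 1 array per fetus, and having few arrays limits precision. The authors deposited probe intensity and a detection p-value for each array per the file headers. Per the submitters' processing notes the tools were GenomeStudio and Partek, with no version stated. The deposited intensity was background-corrected from the detection p-values and quantile-normalized (limma neqc, offset 16) among these 6 arrays, with limma 3.58.1 in R 4.3.3, giving values on the log2 scale that were not the authors' own.

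Probes with detection p under 0.05 on all 6 arrays were kept, and the brightest probe stood for each symbol. Of the probes, 28098 carry 1 symbol in GEO's platform annotation, 13 several, and 20692 are not listed there. Slide and sex were tested with limma (lmFit, eBayes, Benjamini-Hochberg), and the steps were tested on simulated data. A list's mean deviation is the mean, over its genes detected on all 6, of each value minus the gene's mean.

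The members and the 34 gene lists were chosen with earlier results of these data known. The rule named ALB, TTR, AFP and IGF2, all fetal hepatic and globin genes, the 30 brightest and 30 most variable genes, the 4 to 8 brightest members of each other list, defining members detected nowhere, sex-linked genes, the leading genes of both fits and the genes beside the detection limit. The heart, skeletal muscle and kidney lists and any other gene named were chosen after values were seen. Alternatives covered background correction, scaling, offset, filter, probe choice, covariates and each array left out.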

Additional observations from a re-analysis of the deposited data

Results flagged for a closer look

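A single array lay far from the other 5, by Dixon's test, in 3 of 78 genes and 2 of 30 lists. Chance gives about 1 in 20 for items not chosen by their spread. That rate does not hold for genes chosen by their spread on these same values, such as HIBADH, among the 30 most variable genes. The lists also share members, so neither count is read against the rate. HIBADH, an enzyme of valine breakdown, was at 5.70 on CON1 against 9.01 to 9.997 on the others. The bright probe of PCLAF was at 14.38 on CON6 against 14.57 to 14.63, and that of TUBA3FP at 14.15 on CON6 against 14.37 to 14.47. The mean deviation of the fetal hepatic programme was 0.21 on CON4 against -0.07 to -0.01, and that of the IGF axis 0.37 on CON4 against -0.12 to 0.05. CON4 is the library with kidney and heart transcripts, whose part in these values was not tested.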

How the results depend on the processing

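No paired analysis was possible because the replicate numbers only name arrays and no second group was compared. The 218 features called between slides became 10 with median scaling, 66 with detection p under 0.01, 347 with detection on at least 2 arrays, 94 without CON3 and CON4, and 0 with sex as a covariate, in the 3 males only, or without CON3, CON4 and CON5. Leaving out 1 array gave 7 to 312. With detection p under 0.01, 4282 genes were detected on all 6, 17 of the 30 most variable genes were shared, and 0 B cell, 10 erythroid and 3 stem and progenitor genes were left. Of the 30 brightest genes 28 were shared with the mean of a gene's kept probes and 12 with the mean of all its probes, detected or not, an alternative chosen after seeing the data. No result reversed. The sex comparison gave 0 calls under every alternative run, and without CON4 it could not be estimated. The cause of these shifts was not tested. Dim genes near background, 6 arrays, human probes on baboon RNA and the overlap of slide and sex limit what can be read.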

Other observations

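The genes here were chosen after their values were seen and carry no test. Some genes of fat synthesis were highest on CON2. Fatty acid synthase FASN read 9.87, 12.28, 10.08, 10.38, 10.66 and 9.74 from CON1 to CON6, and the desaturase SCD 6.35, 10.34, 7.98, 8.48, 6.41 and 4.85. THRSP, a regulator of lipogenesis, read 5.61, 8.55, 6.06, 5.50, 5.07 and 4.84. CON2 was highest in all 3, and it was among the livers with low PCK1.

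Some interferon-induced genes were highest on CON6. IFI27 read 7.85, 7.50, 8.35, 7.35, 8.68 and 10.13, IFIT1 8.12, 7.93, 7.70, 7.52, 7.98 and 9.21, and IFI44L 5.45, 5.97, 5.79, 5.94, 5.57 and 7.03. Another interferon-induced gene, ISG20, was highest on CON2, at 7.12, and lowest on CON6, at 4.98. The lipid droplet coat gene PLIN2 was highest on CON6, at 10.35 against 8.10 to 9.34. On CON1 the heat shock gene HSPA1B was highest, at 11.10 against 8.15 to 9.77.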
